A study of Homo sapiens with 4 samples.

Results

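Amino acid transporters of the plasma membrane and lysosome were examined in Huh7 cells, a human line from a hepatocellular carcinoma, that had been transfected with pcFLAG-hSTYK1 or with pcFLAG alone. STYK1 is a receptor-like kinase, and the comparison asks which transcripts differ when it is overexpressed. The genes are those of the solute carrier families SLC1A, SLC3A, SLC6A, SLC7A, SLC36A, SLC38A and SLC43A that the array platform's annotation gives as the only symbol of a probe set, without antisense genes and pseudogenes. There were 58 such genes, each read by its brightest probe set, among 22395 genes with a symbol of their own and 53617 probe sets in all. The probe set of SLC43A3 also carries PRG2, so it was not taken. The groups were 2 STYK1 arrays (pcFLAG-hSTYK1) and 2 control arrays (pcFLAG), with biotin-labelled material from total RNA on Affymetrix whole-transcript arrays. Both groups are the same cell line, and the labels give no time after transfection, no share of transfected cells and do not say whether replicates were separate cultures. The p-values therefore reflect the scatter of these 4 arrays alone, possibly technical, and the number of arrays limits the precision. In bulk RNA, fewer cells expressing a gene and less RNA per cell cannot be told apart.

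Cells take up amino acids through carriers that differ in substrate and in driving force. Members of SLC1, SLC6 and SLC38 are mostly driven by the sodium gradient, SLC36 carriers by protons, SLC43 carriers by facilitated diffusion, and many SLC7 carriers exchange an amino acid inside for another outside. Light chains of SLC7 reach the membrane bound to a heavy chain of SLC3. In liver these carriers feed urea and glutathione synthesis, and in liver cancer cells SLC7A5 and SLC7A11 are well known for leucine and cystine supply. Several of the genes are transcribed more when amino acids are scarce, through the kinase GCN2 and the transcription factor ATF4.

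STYK1 read 7.40 and 7.86 log2 units in the STYK1 arrays, against 0.263 and 0.613 in the controls. It was at least 118-fold higher with the controls set at the background level, and the fitted difference was 7.19 ± 0.205 (SE; limma, adjusted p = 0.0373). Leaving out any 1 of the 4 arrays ended this call, with adjusted p-values of 0.347 to 0.724 and differences of 6.96 to 7.42. The background level was set on each array at the 95th percentile of 423 probe sets for olfactory receptors, genes not expected in liver cells, and lay between 0.725 and 0.774. Hepatocyte and liver cancer markers were above it for 9 of 9 measured genes, such as ALB, which averaged 10.6 with STYK1 and 10.5 in the controls. Of markers of other cell types, those above it were 3 of 8 for neurons and glia, 2 of 7 for kidney tubule and intestine, 3 of 5 for immune cells and 1 of 5 for endothelium and fibroblasts. Over all named genes it was 11385 of 22395, so such counts say little on their own. Above it on all 4 arrays were 0 for neurons and glia and 0 for endothelium and fibroblasts. The others so placed were CDX2 (mean 1.16) for intestine, and LYZ (7.95) and CD14 (2.07) for immune cells.

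No amino acid transporter passed the adjusted threshold, and the differences were small. Of the 58 genes, 32 were higher and 26 lower in the STYK1 arrays, with a median difference of 0.027 log2 units, against 0.006 over all 53617 probe sets. Differences ran from −0.39 to 0.29, none reached 2-fold, and the adjusted p-values were 0.979 or above (limma). At an adjusted p under 0.05 limma called 0 of 58 genes, and 0.00187% of all probe sets, which is STYK1 alone. At an unadjusted p under 0.05 it called 1 gene, SLC38A12, against 4.64% of all probe sets, 3.72% of named genes and 5.45% of named genes above background. The arrays of the groups did not overlap for 15 genes (25.9%), 7 with the STYK1 arrays higher and 8 with them lower, while 32.8% of all probe sets, 32.9% of named genes and 33.0% of named genes above background were so apart. By direction, the STYK1 arrays were higher for 17.4% of probe sets, 16.7% of named genes and 17.1% of those above background, and lower for 15.4%, 16.2% and 15.9%. By background, 34 of the 58 genes had a mean over the 4 arrays above the mean background level of 0.75. Over named genes it was 11385 of 22395. On every array 32 of the 58 were above background, against 9731 of the named genes. The 24 transporter genes with a mean not above it read between 0.241 and 1.00 and differed by −0.13 to 0.16. Signals of different genes come from different probes, so levels are compared only within a gene.

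**Figure D1:**
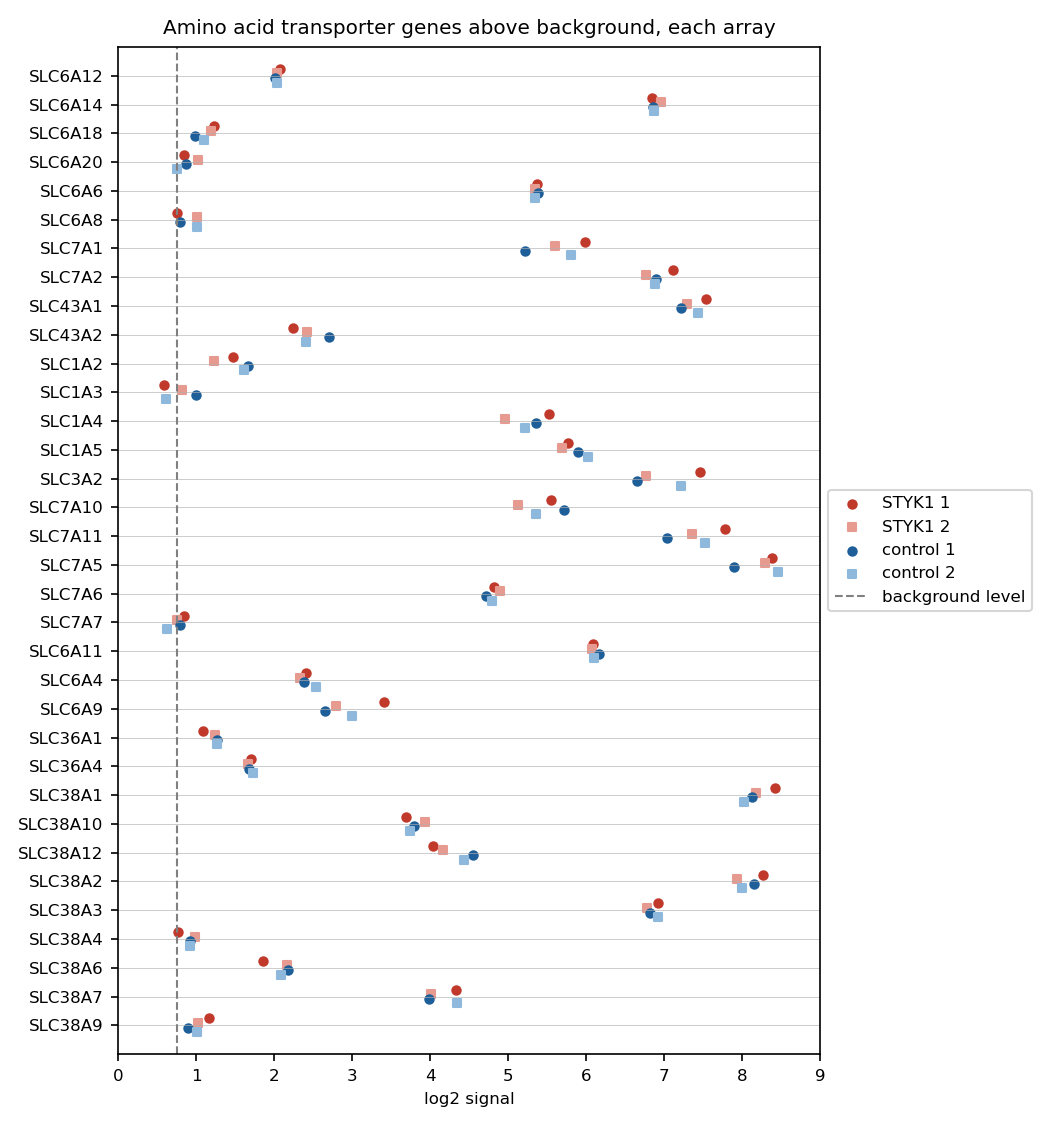
Log2 signal (horizontal axis) of the 34 amino acid transporter genes whose mean is above background, with 1 point per array and the mean background level of 0.75 as a dashed line. STYK1 and control points of most genes lie intermixed, and those of SLC38A12 are apart, with the STYK1 arrays at 4.03 and 4.16 and the controls at 4.55 and 4.43.

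The heavy chain SLC3A2 (4F2hc, CD98), which carries several SLC7 light chains to the cell surface, varied more between replicates than between the groups. It read 7.46 and 6.77 in STYK1 replicates 1 and 2, against 6.65 and 7.22 in control replicates 1 and 2. STYK1 replicate 1 and control replicate 2 were the high arrays, and the groups overlapped. The difference was 0.18 ± 0.303 (SE) with a 95% interval of −0.62 to 0.97 (limma, adjusted p = 0.995). The other heavy chain, SLC3A1 (rBAT), which serves cystine reabsorption in the kidney, read 0.639 to 0.793. Its mean of 0.748 was not above the mean background level of 0.75, though it was above the level of the array on 3 arrays.

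Among the light chains, SLC7A11 and SLC7A5 lay lowest in control replicate 1, as did SLC7A6 and SLC7A9. SLC7A11 (xCT), which imports cystine in exchange for glutamate, read 7.78 and 7.35 in the STYK1 arrays, against 7.04 and 7.52 in the controls. Its difference was 0.29 ± 0.227 (SE) (95% interval −0.31 to 0.88; limma, adjusted p = 0.98). It was 0.044 without control replicate 1 and 0.071 without STYK1 replicate 1, against 0.50 without STYK1 replicate 2 and 0.53 without control replicate 2. SLC7A5 (LAT1), the exchanger of leucine and other large neutral amino acids, read 8.39 and 8.29 in the STYK1 arrays, against 7.90 and 8.46 in the controls. Both STYK1 readings of SLC7A5 lay between the control readings, the difference was 0.16 and its 95% interval ran from −0.37 to 0.69. Pseudogene copies SLC7A5P1 and SLC7A5P2 have probe sets of their own on this array, and whether the SLC7A5 probes also read them is not known from the files.

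The other light chains differed by −0.19 to 0.10. SLC7A6 (y+LAT2), which exchanges cationic for neutral amino acids, read 4.82 and 4.89 in the STYK1 arrays, while the controls gave 4.72 and 4.79, and the groups were apart by a narrow margin. SLC7A10 (Asc-1), a carrier of small neutral amino acids including D-serine, read 5.56 and 5.13 with STYK1 and 5.71 and 5.35 in the controls. Here replicate 1 was the higher array in each group, and the difference of −0.19 had a 95% interval of −0.71 to 0.33. SLC7A7 (y+LAT1) was close to background at 0.846 and 0.75 with STYK1 and 0.798 and 0.629 in the controls. SLC7A8, SLC7A9 and SLC7A13 were not above background by their means, with differences of −0.06 to 0.07.

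The cationic amino acid transporter SLC7A1 (CAT1), which imports arginine and lysine, had the same order of arrays as SLC3A2 at its ends. It read 5.99 and 5.60 in the STYK1 arrays, against 5.21 and 5.81 in the controls, and the group means differed by 0.28 ± 0.249 (SE) (95% interval −0.37 to 0.93; limma, adjusted p = 0.983). The group means thus differed by less than the 0.394 between the STYK1 replicates and the 0.603 between the controls. SLC7A2 (CAT2), the cationic transporter typical of liver, read 7.12 and 6.77 in the STYK1 arrays, while the controls gave 6.90 and 6.88, so both controls lay between the STYK1 arrays. SLC7A3, SLC7A4 and SLC7A14 were not above background, at 0.261 to 0.671.

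In the SLC1 family, the 4 genes above background had lower means in the STYK1 arrays, and for SLC1A2 and SLC1A5 the groups did not overlap. Of named genes above background, 33.0% were so apart in either direction. Of the 3 SLC1 genes not above background, 2 were higher and 1 lower, and SLC1A6 was apart with the STYK1 arrays higher. SLC1A5 (ASCT2), a sodium-dependent exchanger that takes up glutamine, read 5.77 and 5.69 in the STYK1 arrays, against 5.90 and 6.02 in the controls. The difference of −0.23 had a 95% interval of −0.48 to 0.02 and did not pass (limma, adjusted p = 0.979). SLC1A2 (GLT-1), a glutamate transporter best known from astrocytes, read 1.47 and 1.23 in the STYK1 arrays, against 1.67 and 1.61 in the controls. Its difference was −0.29 with a 95% interval of −0.59 to 0.01 (limma, adjusted p = 0.979), and −0.17 without STYK1 replicate 2.

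SLC1A4 (ASCT1), a carrier of serine, alanine and cysteine, read 5.53 and 4.96 with STYK1 and 5.36 and 5.22 in the controls. Both extremes were STYK1 arrays, and the difference was −0.05. SLC1A3 (GLAST) lay near background on all arrays, at 0.587 and 0.817 with STYK1 and 0.997 and 0.61 in the controls. SLC1A1, SLC1A6 and SLC1A7 were not above background by their means.

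SLC38A12, listed by RefSeq also as TMEM104, had the largest difference and the smallest p of the 58 genes. It read 4.03 and 4.16 in the STYK1 arrays, against 4.55 and 4.43 in the controls. Every STYK1 reading was below every control reading, and the difference of −0.39 exceeded the 0.128 between the STYK1 replicates and the 0.116 between the controls. It amounts to a 1.31-fold lower signal, with a 95% interval of −0.66 to −0.13 (limma, adjusted p = 0.979), so it did not pass over all probe sets. Its unadjusted limma value of 0.0125 ranged from 0.00864 to 0.0651 over 10 alternatives, and was 0.0615 without STYK1 replicate 1 and 0.0651 without control replicate 1.

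Among the other SLC38 genes, SLC38A1 (SNAT1), a sodium-coupled carrier of glutamine and other neutral amino acids, had higher readings in both STYK1 arrays. These were 8.42 and 8.19, against 8.13 and 8.03 in the controls, and the group means differed by 0.22 with a 95% interval of −0.08 to 0.53 (limma, adjusted p = 0.979). Its STYK1 replicates lay 0.233 apart, more than the group means did. The difference between the groups was 0.11 without STYK1 replicate 1 and 0.34 without STYK1 replicate 2. SLC38A2 (SNAT2), a carrier of the same kind known to be induced by amino acid starvation, read 8.27 and 7.93 in the STYK1 arrays, while the controls gave 8.149 and 8.003. Its groups overlapped, and its difference was 0.03. SLC38A3 (SNAT3), a glutamine carrier of liver, read 6.92 and 6.79 with STYK1 and 6.82 and 6.93 in the controls, with a difference of −0.015. SLC38A4 (SNAT4), another carrier of liver, was near background at 0.76 and 0.979 with STYK1 and 0.919 and 0.922 in the controls.

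Both lysosomal members of SLC38 were above background. SLC38A9, the arginine-sensing carrier that signals to mTORC1, read 1.16 and 1.03 in the STYK1 arrays, against 0.898 and 1.01 in the controls. The groups were apart by less than the distance between the replicates of either group, and the difference was 0.14 with a 95% interval of −0.12 to 0.40. SLC38A7, which exports glutamine from lysosomes, read 4.33 and 4.01 in the STYK1 arrays, while the controls gave 3.99 and 4.34, with a difference of 0.01. For SLC38A7 as for SLC3A2, STYK1 replicate 1 and control replicate 2 were the high arrays. SLC38A6 read 1.86 and 2.17 with STYK1 and 2.18 and 2.09 in the controls, and SLC38A10 read 3.69 and 3.93 in the STYK1 arrays, while the controls gave 3.80 and 3.74. Neither differed beyond its replicates. SLC38A5, SLC38A8 and SLC38A11 were not above background by their means, at 0.502 to 0.784.

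Proton-coupled SLC36 carriers and facilitative SLC43 carriers differed by at most 0.23. SLC36A1 (PAT1), a lysosomal exporter of small amino acids, read 1.08 and 1.24 with STYK1 and 1.27 and 1.27 in the controls. The groups were apart, with a difference of −0.11 (95% interval −0.36 to 0.14), smaller in size than the 0.155 between the STYK1 replicates. SLC36A4 read 1.70 and 1.66 in the STYK1 arrays, while the controls gave 1.67 and 1.73, which is no difference beyond the replicates, and SLC36A2 and SLC36A3 were not above background. SLC43A1 (LAT3), a carrier of branched-chain amino acids and phenylalanine, read 7.54 and 7.30 with STYK1 and 7.22 and 7.43 in the controls. SLC43A2 (LAT4), with similar substrates, read 2.24 and 2.42 in the STYK1 arrays, while the controls gave 2.71 and 2.40, and control replicate 1 alone was set apart. The differences were 0.09 for SLC43A1 and −0.23 for SLC43A2 (limma, adjusted p = 0.991 and 0.979), and that of SLC43A2 was −0.08 without control replicate 1.

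In the SLC6 family, whose best-known members clear neurotransmitters from synapses, 3 of 7 neurotransmitter carriers and 6 of 11 other carriers were above background. SLC6A9 (GLYT1), the glycine transporter, had the widest range over the arrays among these. It read 3.41 and 2.79 in the STYK1 arrays, against 2.655 and 3.004 in the controls, and the group means differed by 0.27 with a 95% interval of −0.37 to 0.92 (limma, adjusted p = 0.983). STYK1 replicate 1 alone stood above the rest. SLC6A4, the serotonin transporter, read 2.40 and 2.33 with STYK1 and 2.38 and 2.53 in the controls. SLC6A11 (GAT3), a GABA transporter, read 6.09 and 6.08 in the STYK1 arrays, while the controls gave 6.17 and 6.10, with a difference of −0.05. The remaining neurotransmitter carriers, SLC6A2, SLC6A3, SLC6A5 and SLC6A13, were not above background by their means, at 0.474 to 0.812.

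Among the carriers of amino acids and osmolytes in SLC6, the groups hardly differed for SLC6A6, SLC6A14 and SLC6A12. SLC6A6, the taurine transporter, read 5.38 and 5.35 with STYK1 and 5.38 and 5.35 in the controls, with a difference of −0.002 and a 95% interval of −0.22 to 0.22. SLC6A14 (ATB0,+), a carrier of neutral and cationic amino acids, read 6.85 and 6.96 in the STYK1 arrays, while the controls gave 6.86 and 6.87. SLC6A12 (BGT1), the betaine transporter, read 2.08 and 2.04 with STYK1 and 2.01 and 2.04 in the controls. For all of SLC6A6, SLC6A14 and SLC6A12 the difference was at most 0.04 in size, below their standard errors.

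The other SLC6 carriers above background were dim. SLC6A8, the creatine transporter, read 0.752 and 1.01 in the STYK1 arrays, while the controls gave 0.793 and 1.01. SLC6A8 has a near copy, SLC6A10P, so its reading is uncertain. SLC6A18 read 1.22 and 1.19 with STYK1 and 0.988 and 1.10 in the controls, which is apart by less than the replicate distance of the controls. SLC6A20 (SIT1), a proline carrier, read 0.848 and 1.03 in the STYK1 arrays, while the controls gave 0.865 and 0.758. SLC6A7, SLC6A15, SLC6A16, SLC6A17 and SLC6A19 were not above background by their means.

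**Figure D2:**
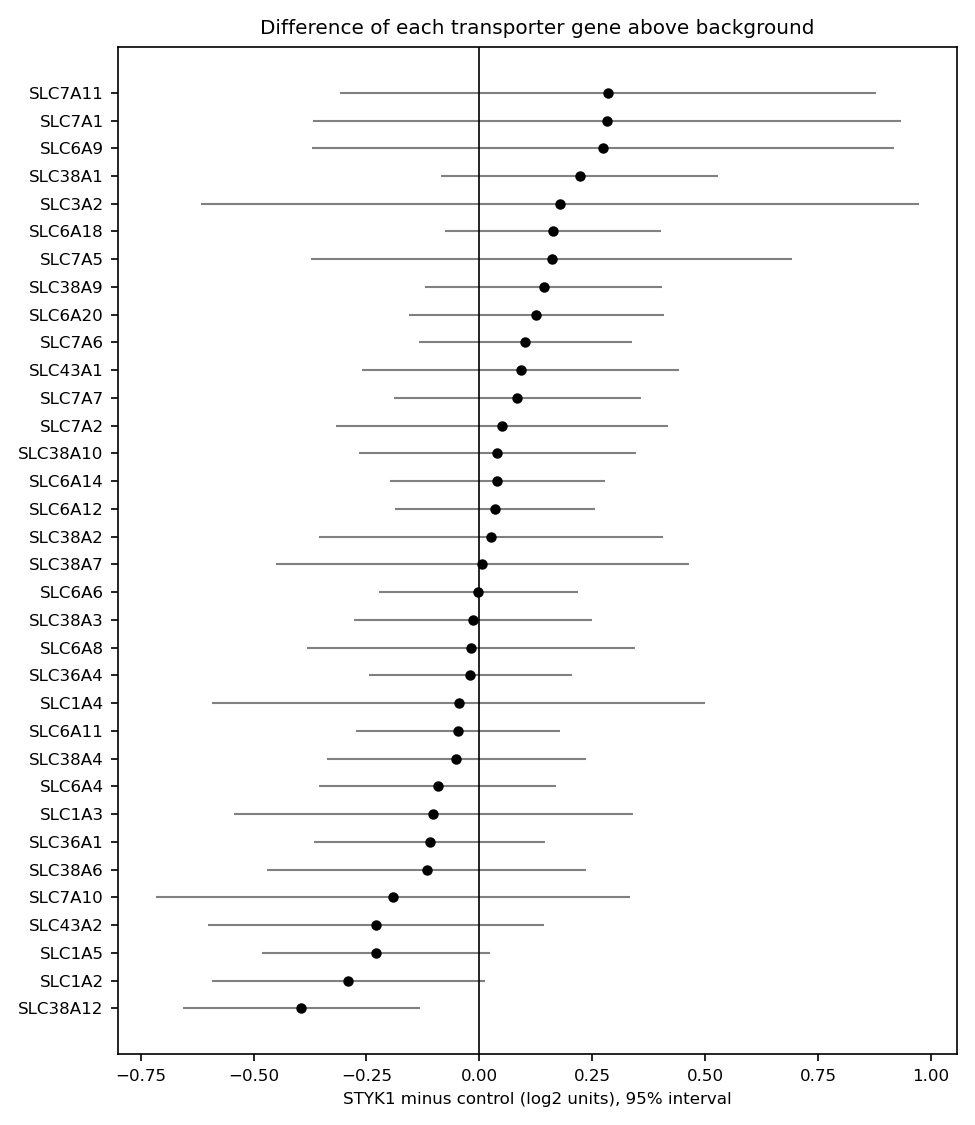
Difference STYK1 minus control in log2 units (horizontal axis) for the 34 genes above background, with the 95% interval of the limma fit as a bar, ordered by size. The differences run from −0.39 for SLC38A12 to 0.29 for SLC7A11, and the interval of SLC38A12 alone lies on 1 side of 0.

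Replicates of 1 group differed from each other by more than the groups did for 48 of the 58 genes, taking the larger of the 2 replicate distances. It was so for 28 of the 34 above background. The share was 78.3% over all probe sets and 78.0% over named genes above background. A range over the 4 arrays above 0.5 log2 units was found for 9 genes, against 14.0% of all probe sets and 9.81% of named genes, a limit chosen after the values were seen. Above background there were 8 of 34, against 15.8% of named genes above background. These were SLC3A2, SLC7A1, SLC6A9, SLC7A11, SLC7A10, SLC1A4, SLC7A5 and SLC38A12, plus SLC7A8, which was not above background by its mean. In SLC3A2, SLC7A1, SLC7A11 and SLC6A9, STYK1 replicate 1 was highest and control replicate 1 lowest, with ranges of 0.742 to 0.809. Over all 58 genes, STYK1 replicate 1 was highest for 21, against 25.8% of all probe sets and 26.5% of named genes, and control replicate 1 was lowest for 15, against 25.3% and 25.8%. Above background the counts were 13 and 11 of 34, against 30.1% and 27.5% of named genes above background.

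**Figure D3:**
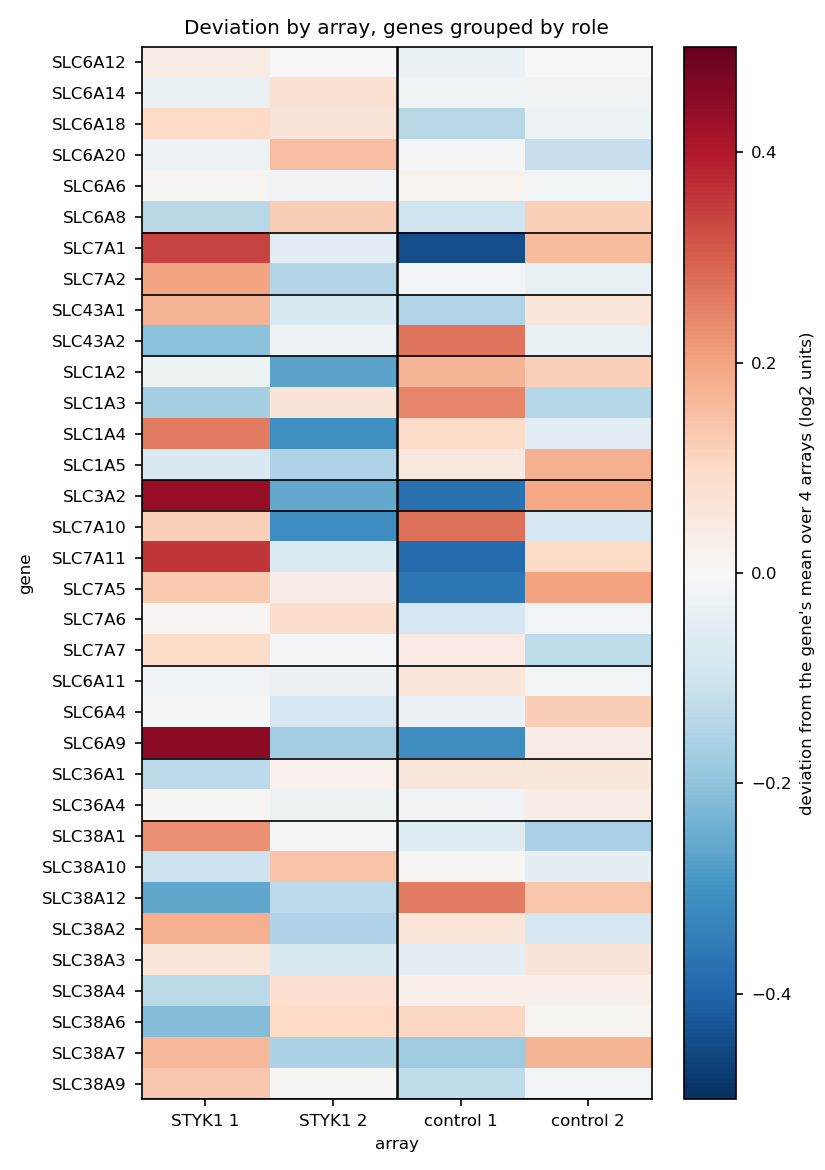
Deviation of each array from the gene's mean over the 4 arrays in log2 units, as colour, for the 34 genes above background, grouped by role, with the STYK1 arrays in the left columns. SLC3A2, SLC7A1, SLC7A11 and SLC6A9 are high in STYK1 replicate 1 and low in control replicate 1, and SLC38A12 is low in both STYK1 arrays.

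Genes listed for the GCN2-ATF4 arm, which responds to amino acid scarcity, were on average high and low on the same arrays as SLC3A2. Without the transporters the list has 27 genes, all above background. It also holds EIF2AK1, EIF2AK2 and EIF2AK3, kinases other than GCN2, so it is not limited to amino acid scarcity. STYK1 replicate 1 was the highest array for 16 of them, against 30.1% of named genes above background. Control replicate 1 was the lowest for 14, against 27.5%, so the order did not hold for every gene. Their mean deviation was 0.265 and −0.16 in STYK1 replicates 1 and 2, against −0.214 and 0.109 in control replicates 1 and 2. For SLC3A2 the corresponding deviations were 0.435 and −0.257, against −0.373 and 0.195. STYK1 replicate 1 and control replicate 2 were thus the high arrays of the list and of SLC3A2, and the groups overlapped. SLC3A2 had the widest range over the arrays of the transporters (0.809), so it does not stand for the others. The 34 transporters above background averaged 0.057 and −0.047 in STYK1 replicates 1 and 2. In control replicates 1 and 2 they averaged −0.034 and 0.024. The part of this arm in the spread of the transporters was not tested. ASNS, asparagine synthetase, read 5.59 and 4.62 with STYK1 and 4.54 and 4.96 in the controls, and ATF4 itself 7.13 and 6.94 with STYK1 and 7.14 and 7.01 in the controls. Both were picked after their values were seen.

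Between the groups, 18 of these 27 genes were higher and 9 lower, with a median difference of 0.062, and 0 passed the adjusted threshold (limma). At an unadjusted p under 0.05 there were 2 of 27, against 5.45% of named genes above background. PPP1R15A, a regulatory subunit of the eIF2alpha phosphatase, read 2.48 and 2.28 with STYK1 and 1.48 and 1.88 in the controls (difference 0.70, limma, adjusted p = 0.979). STC2, a secreted glycoprotein that falls outside the naming rule, was 0.33 higher. CTH, which makes cysteine from cystathionine, had a difference of 0.51 ± 0.493 (SE) with a range over the arrays of 1.56.

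Promoters are shown because ATF4 acts through the C/EBP-ATF response element, and the table of RefSeq start regions (GRCh38.p14) holds 67 windows for 45 of the 58 genes, each from 250 bases before to 50 bases after an annotated start. The letters TGATGNAA were searched on both strands of these windows. Genes without a window, among them SLC7A11, were not searched. They occurred in 6 of the 67 windows (8.96%), against 3.62% of all 35116 windows, in SLC3A2, SLC7A1, SLC38A1, SLC1A4, SLC1A5 and SLC1A3. Such a match is a description of letters, and several genes have more than 1 start. The windows with a match follow for 5 of these genes, read 5′ to 3′ on the strand of the gene with the matched bases in capitals, and then the window of SLC38A12, which holds none. In SLC3A2 and SLC1A4 the match is on the strand opposite to the gene.
SLC3A2 (chr11:62881449-62881748, plus strand): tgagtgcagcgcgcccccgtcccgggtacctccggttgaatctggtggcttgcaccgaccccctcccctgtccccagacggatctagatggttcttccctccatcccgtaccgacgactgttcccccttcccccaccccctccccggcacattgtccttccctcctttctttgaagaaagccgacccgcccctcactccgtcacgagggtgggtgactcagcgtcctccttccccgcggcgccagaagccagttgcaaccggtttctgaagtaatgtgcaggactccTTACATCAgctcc
SLC7A1 (chr13:29595639-29595938, minus strand): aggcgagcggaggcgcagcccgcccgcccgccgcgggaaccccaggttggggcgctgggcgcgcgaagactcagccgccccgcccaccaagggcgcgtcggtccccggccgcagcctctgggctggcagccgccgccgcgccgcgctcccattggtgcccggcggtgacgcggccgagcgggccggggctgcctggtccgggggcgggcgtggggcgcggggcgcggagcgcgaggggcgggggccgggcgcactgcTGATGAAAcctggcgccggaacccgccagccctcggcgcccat
SLC38A1 (chr12:46266467-46266766, minus strand): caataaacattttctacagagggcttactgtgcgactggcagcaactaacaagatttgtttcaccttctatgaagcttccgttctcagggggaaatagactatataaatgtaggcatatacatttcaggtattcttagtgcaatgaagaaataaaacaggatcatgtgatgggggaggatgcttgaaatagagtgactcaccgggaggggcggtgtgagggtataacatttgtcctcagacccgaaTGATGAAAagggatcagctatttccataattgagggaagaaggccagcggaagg
SLC1A4 (chr2:64989149-64989448, plus strand): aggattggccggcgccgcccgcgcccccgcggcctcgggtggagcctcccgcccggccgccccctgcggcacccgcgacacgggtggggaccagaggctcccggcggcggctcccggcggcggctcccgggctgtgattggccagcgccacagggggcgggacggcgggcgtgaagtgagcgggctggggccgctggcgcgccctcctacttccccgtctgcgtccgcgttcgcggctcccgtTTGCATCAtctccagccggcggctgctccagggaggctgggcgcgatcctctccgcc
SLC1A5 (chr19:46784765-46785064, minus strand): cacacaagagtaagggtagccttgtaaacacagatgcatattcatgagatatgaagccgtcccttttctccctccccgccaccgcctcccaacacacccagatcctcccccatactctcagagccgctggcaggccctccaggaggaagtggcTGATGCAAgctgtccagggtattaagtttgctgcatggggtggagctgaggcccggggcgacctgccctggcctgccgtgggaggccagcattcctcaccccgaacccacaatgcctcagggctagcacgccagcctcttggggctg
SLC38A12 (chr17:74776249-74776548, plus strand): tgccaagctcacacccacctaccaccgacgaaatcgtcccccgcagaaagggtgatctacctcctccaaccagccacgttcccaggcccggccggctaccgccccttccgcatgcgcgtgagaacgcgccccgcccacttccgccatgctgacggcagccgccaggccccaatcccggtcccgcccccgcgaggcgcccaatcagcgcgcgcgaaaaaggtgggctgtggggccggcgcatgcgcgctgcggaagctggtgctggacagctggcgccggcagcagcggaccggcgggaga

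Readings of these genes did not share a direction between the groups. Of the 6 genes with a match, SLC3A2, SLC7A1 and SLC38A1 had positive differences (0.18, 0.28 and 0.22), and SLC1A3, SLC1A4 and SLC1A5 negative ones (−0.10, −0.05 and −0.23). STYK1 replicate 1 was the highest array for SLC3A2, SLC7A1, SLC38A1 and SLC1A4, control replicate 1 for SLC1A3 and control replicate 2 for SLC1A5.

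Other genes of amino acid handling gave no call at the adjusted threshold either (limma). Of 21 measured carriers of amino acids and peptides outside these families, 9 were higher and 12 lower, with a median difference of −0.02. CTNS, the lysosomal cystine exporter, differed by 0.25 and SLC66A1, a lysosomal exporter of cationic amino acids, by −0.22. For both the groups overlapped. The STYK1 replicates of CTNS lay 0.467 apart and the controls of SLC66A1 0.31, more than the groups did. At an unadjusted p under 0.05 there was 1 of 21, against 4.64% of all probe sets, and this gene, SLC25A2, was not above background by its mean and falls outside the naming rule. Of 29 measured genes of amino acid sensing upstream of mTORC1, 17 were higher and 12 lower, with a median of 0.03. The 2 of 29 with an unadjusted p under 0.05, against 5.45% of named genes above background, were ITFG2, a KICSTOR subunit, and LAMTOR3, a Ragulator subunit. LAMTOR3 read 3.38 and 3.17 in the STYK1 arrays, while the controls gave 2.99 and 2.96, a difference of 0.30, and ITFG2 differed by 0.56.

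The list of partners and regulators of the transporters was higher for 7 of 10 measured genes and lower for 3, with a median of 0.005. At an unadjusted p under 0.05 limma called 1 of 10, ARL6IP5, against 4.64% of all probe sets. The groups were apart for 3 of 10, against 32.8% of all probe sets. These counts include BRIP1 (difference −0.07), a DNA helicase that is not a partner or regulator of these carriers. ARL6IP5, which in the rat binds the glutamate transporter SLC1A1 and holds back its activity, read 2.79 and 2.54 in the STYK1 arrays, against 3.12 and 3.23 in the controls. Both STYK1 readings were the lower ones, and the difference of −0.51 had a 95% interval of −0.83 to −0.19 (limma, adjusted p = 0.979). SLC1A1 itself was not above background, at 0.494 and 0.371 with STYK1 and 0.458 and 0.594 in the controls. NFE2L2 (NRF2), an activator of SLC7A11, read 4.96 and 4.82 with STYK1 and 4.37 and 4.81 in the controls, with a difference of 0.30. That is less than the 0.435 between its controls. Of 10 measured enzymes of glutamine, glutamate and glutathione, 5 were higher and 5 lower, among them the alanine aminotransferase GPT (−0.11) and GCLM, the modifier subunit of glutamate-cysteine ligase (0.10).

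**Figure D4:**
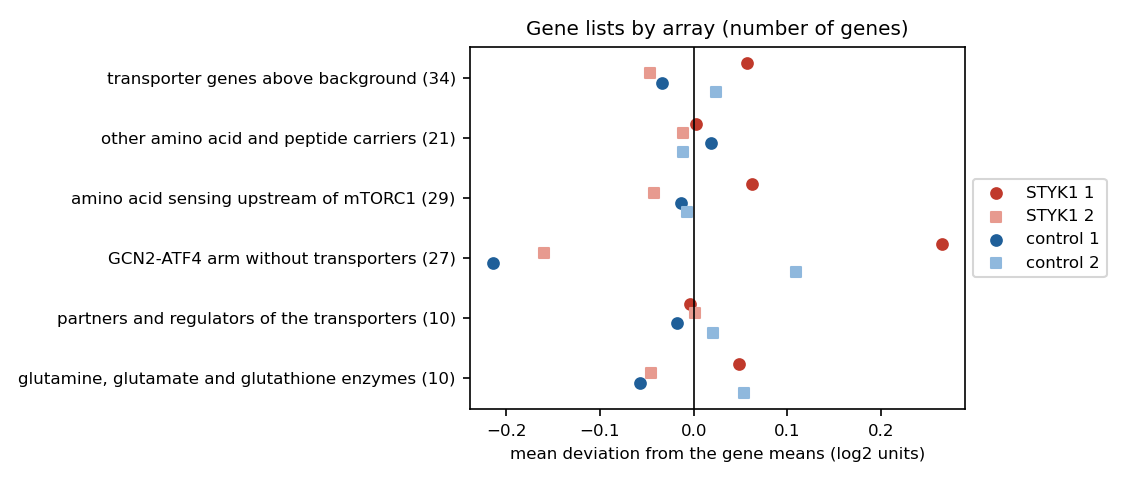
Mean deviation from the gene means in log2 units (horizontal axis) of each gene list on each array, with the number of genes in parentheses. The partners and regulators include BRIP1, a DNA helicase that does not belong among them. The GCN2-ATF4 arm spreads from −0.214 in control replicate 1 to 0.265 in STYK1 replicate 1, and the 34 transporters above background from −0.047 in STYK1 replicate 2 to 0.057 in STYK1 replicate 1.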

How the data were processed

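The authors deposited 1 table of log2 signals per probe set, with 1 column per array, which was read here as 2 STYK1 and 2 control arrays from the titles. Base 2 was inferred from the range of the values, whose largest was 11.35. As software, the submitters' processing notes list Transcriptome Analysis Console. Its version, and how signals were summarized and normalized, were not given in the sources used here. Array medians were 0.615 to 0.629, so no normalization was added. The table holds no detection calls or scan dates, so no batch could be examined. Background correction that shrinks dim signals would also shrink differences of dim genes.

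Of 53617 probe sets, 23871 had exactly 1 symbol in the platform annotation, 1842 had several and 27904 had none here. Symbols were updated by Entrez ID through the RefSeq gene table of GRCh38.p14, and each gene took its brightest probe set. Groups were compared with limma 3.58.1 in R 4.3.3 (group as sole term, eBayes without trend, two-sided, Benjamini-Hochberg over all probe sets, threshold 0.05; 2 residual and 2.71 prior degrees of freedom). An exact two-sided permutation test over 2 arrays against 2 cannot go below 0.333, so none is given. Genes above background by their mean over the 4 arrays are named with their values; from each pathway list (cell type markers apart) the 2 above background with the largest difference are named. The members and lists were chosen with earlier results of these data known. Alternatives were another prior, quantile normalization, median centring, the replicate number as a block, named genes only, probe sets above background only, and leaving out each array.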

Additional observations from a re-analysis of the deposited data

How the results depend on the processing

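Under a replicate block STYK1 differed by 7.19 (adjusted p = 0.0637) and 0 probe sets passed the adjusted threshold. Nothing in the labels says that a number marks a shared culture, and deviations of same-numbered arrays correlated at −0.044, so the pairing stayed an alternative; the block changed no call among the transporters. Leaving out 1 array, with a lone array taken to scatter as the other group does, gave 6.96 to 7.42 for STYK1, ended its call each time and left 0 probe sets (lowest 0, highest 0) past the adjusted threshold. It gave 0 to 2 transporter genes at an unadjusted p under 0.05 and a median difference of −0.024 to 0.031, below 0 without STYK1 replicate 1 and without control replicate 2. Transporter genes with groups apart numbered 32 to 42, since fewer arrays overlap less often, and 9 among the 34 above background. At an unadjusted p there were 2 transporter genes after quantile normalization and 2 with named genes only, SLC1A2 joining SLC38A12, and 1002 probe sets with named genes only and 969 above background, where fewer were tested. No named transporter passed the adjusted threshold in any of the 10 alternatives, and 13 of 34 kept their sign in all. Sign apart, their sizes also moved when 1 array was left out: SLC7A11 0.044 to 0.53, SLC43A2 −0.38 to −0.076, SLC1A2 −0.41 to −0.17, SLC36A1 −0.19 to −0.033, SLC38A1 0.11 to 0.34, SLC38A9 0.076 to 0.21, SLC6A20 0.036 to 0.22, SLC6A18 0.11 to 0.22, SLC6A4 −0.17 to −0.016, SLC6A11 −0.084 to −0.012, SLC7A6 0.064 to 0.14, SLC1A5 −0.29 to −0.16 and SLC38A12 −0.46 to −0.33. Quantile normalization turned SLC38A7 to −0.01 and SLC6A12 to −0.002. Leaving out 1 array turned the sign of others, with these ranges: SLC1A3 −0.30 to 0.092, SLC1A4 −0.33 to 0.24, SLC36A4 −0.048 to 0.008, SLC38A10 −0.083 to 0.16, SLC38A2 −0.14 to 0.19, SLC38A3 −0.082 to 0.052, SLC38A4 −0.16 to 0.058, SLC38A6 −0.27 to 0.039, SLC38A7 −0.17 to 0.18, SLC3A2 −0.17 to 0.53, SLC43A1 −0.031 to 0.21, SLC6A14 −0.014 to 0.095, SLC6A6 −0.018 to 0.013, SLC6A8 −0.15 to 0.11, SLC6A9 −0.036 to 0.58, SLC7A1 −0.019 to 0.58, SLC7A10 −0.41 to 0.024, SLC7A2 −0.12 to 0.22, SLC7A5 −0.12 to 0.44, SLC7A7 −0.000 to 0.17. The mean over a gene's probe sets was not run.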
